A study of Mus musculus with 12 samples.

Results

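Leukocyte integrins are the adhesion receptors by which blood-derived cells hold on to other cells and to matrix. The genes described here are the 10 subunit genes Itgae, Itgb7, Itgax, Itgam, Itgal, Itgb2, Itgav, Itga4, Itgb1 and Itgb5, chosen by gene symbol from the 40847 rows of a table of read counts. All 10 were found, and all 10 were among the 14749 genes that passed the filter on low counts. The counts come from fetal liver alveolar-like macrophages (FLAMs), mouse cells taken from fetal liver and grown in 30 ng/ml of GM-CSF, the growth factor on which lung alveolar macrophages depend. Cells in the TGFβ groups were also given 20 ng/ml of recombinant human TGFβ1, and cells in the Pam3 groups were given 25 ng/ml of Pam3CSK4 (Pam3), a synthetic lipopeptide that activates TLR2, for 18 h. These make 4 groups of 3 libraries: untreated, TGFβ, Pam3 and Pam3+TGFβ. All 4 groups, the untreated one included, carry GM-CSF. The strain, the genotype and the time spent in TGFβ are not given in the labels, and the cells derive from fetal liver and not from lung.

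An integrin is a pair of one α and one β chain, and the pairing sets the ligand. The β2 chain (Itgb2) pairs with αL (Itgal) to form LFA-1, a receptor for ICAMs, with αM (Itgam, CD11b) to form the complement receptor Mac-1, and with αX (Itgax, CD11c), which marks dendritic cells and alveolar macrophages. The β7 chain (Itgb7) pairs with αE (Itgae, CD103), which binds E-cadherin and whose mRNA is induced by TGFβ in T cells, or with α4 (Itga4), while α4 with β1 (Itgb1) forms the VCAM-1 and fibronectin receptor, and αv (Itgav) with β1, β5 (Itgb5) and others binds matrix proteins and, for some pairs, latent TGFβ.

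The sequences just before the start sites are shown for the 2 members that fell most with TGFβ, Itgb7 and Itgam, and for the 2 above 1 CPM that rose most, Itgal and Itgb5. The members lie on different chromosomes, except that the 3 β2 partner genes share chromosome 7 and Itgav and Itga4 share chromosome 2. In the GENCODE M39 annotation of GRCm39, Itgam (7:127661808 to 127717753, plus strand) ends 10914 bases before Itgax (7:127728668 to 127749829, plus strand), which ends 3718 bases before Itgad, the gene of the fourth β2 partner. Itgal (7:126895432 to 126934320, plus strand) lies 727487 bases upstream of Itgam. Itgb7 is at 15:102124429 to 102140379 on the minus strand, Itgb5 at 16:33649988 to 33771137 on the plus strand, and Itgae at 11:72981409 to 73039917 on the plus strand. The 250 bases before the canonical start were read from GRCm39 on each gene's own strand, at chr15:102140380-102140629 for Itgb7, chr7:127661558-127661807 for Itgam, chr7:126895182-126895431 for Itgal and chr16:33649738-33649987 for Itgb5. Capitals mark matches on either strand to the SMAD box CAGAC (complement GTCTG) and to the PU.1 core GAGGAA (complement TTCCTC), which share no bases here.
Itgb7: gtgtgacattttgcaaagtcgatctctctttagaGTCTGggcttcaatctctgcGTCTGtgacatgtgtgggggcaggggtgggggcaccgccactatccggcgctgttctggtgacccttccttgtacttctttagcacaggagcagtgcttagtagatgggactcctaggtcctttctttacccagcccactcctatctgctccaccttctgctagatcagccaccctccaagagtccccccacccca
Itgam: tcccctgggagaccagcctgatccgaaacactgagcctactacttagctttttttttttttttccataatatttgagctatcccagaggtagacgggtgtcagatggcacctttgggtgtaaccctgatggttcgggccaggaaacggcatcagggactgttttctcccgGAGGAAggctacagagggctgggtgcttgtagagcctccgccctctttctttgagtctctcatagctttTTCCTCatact
Itgal: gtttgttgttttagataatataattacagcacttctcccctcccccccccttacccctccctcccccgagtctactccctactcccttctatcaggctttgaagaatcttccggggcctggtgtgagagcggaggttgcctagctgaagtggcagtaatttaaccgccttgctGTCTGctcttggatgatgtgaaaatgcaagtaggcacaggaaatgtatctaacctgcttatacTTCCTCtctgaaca
Itgb5: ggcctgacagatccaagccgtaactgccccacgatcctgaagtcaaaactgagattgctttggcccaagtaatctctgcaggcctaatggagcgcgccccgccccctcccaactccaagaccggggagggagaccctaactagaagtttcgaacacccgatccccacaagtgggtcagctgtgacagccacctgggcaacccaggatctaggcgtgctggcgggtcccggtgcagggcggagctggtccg
The Itgb7 window holds 2 CAGAC matches and no GAGGAA, the Itgam window 2 GAGGAA matches and no CAGAC, the Itgal window 1 of each, and the Itgb5 window neither. The runt-factor core TGTGGT (complement ACCACA) was searched as well and among the 10 members matched only before Itgae. Among 19276 windows of the same length before protein-coding genes, 41.9% hold CAGAC, 23% hold GAGGAA and 12.8% hold TGTGGT, so such matches are common and describe the windows only.

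Library totals ran from 34036650 to 44374115 counts. Levels are given as CPM, the rate of a gene's counts against the TMM-scaled size of its library, and each difference as a log2 fold change with its standard error (SE) from edgeR's quasi-likelihood test over all 12 libraries, with p-values adjusted by Benjamini-Hochberg over the 14749 tested genes and a gene called at an adjusted p under 0.05. The labels do not say whether replicates were separate cultures, so p-values measure the spread between these libraries, which may be technical. Untreated replicate 3, TGFβ replicate 2 and Pam3 replicate 1 stood apart from their groups. Pairs with one of them differed by a chi-square per degree of freedom of 133 to 220, against 9.99 to 28.0 for the other pairs. Smad7, a direct TGFβ target, averaged 2.42 CPM in untreated and 12.1 CPM in TGFβ libraries. All 6 macrophage markers had at least 10 counts in every library, with summed levels of 30626 to 34866 CPM in untreated, 16547 to 17459 CPM in TGFβ, 33289 to 34355 CPM in Pam3 and 25353 to 26032 CPM in Pam3+TGFβ libraries. Most of that sum was Lyz2 (means of 29824 CPM untreated and 15249 CPM with TGFβ), and Adgre1 (303 and 145 CPM), Cd68 (858 and 549 CPM) and Csf1r (983 and 820 CPM) were lower as well. Mertk was at means of 223 and 222 CPM and Fcgr1 at 81.1 and 91.3 CPM. The alveolar macrophage markers had at least 10 counts in every library for 7 of 7 genes in the untreated and Pam3 groups and for 6 of 7 in both TGFβ groups, where Fabp4 fell short of 10 counts in every library. Their sum was 6060 to 6854 CPM in untreated and 7634 to 8172 CPM in TGFβ libraries, and its genes went opposite ways: Marco was at means of 2147 and 123 CPM, Chil3 at 2954 and 5038 CPM, Ear2 at 654 and 1494 CPM and Siglecf at 32.1 and 300.4 CPM. In bulk RNA, fewer cells of a type and less RNA per cell cannot be told apart.

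With TGFβ and no Pam3, Itgam and Itgb7 fell steeply, Itgax and Itga4 fell less, and Itgal and Itgb5 rose, while the shared chains Itgb2 and Itgb1 moved little. Itgae, the gene for which TGFβ regulation is best known, rose from near the counting floor. All 10 members were called, against 51% of all tested genes, 4 of them higher (22.9% of all genes) and 6 lower (28.1%). This count includes Itgae, which was tested on account of its level in the TGFβ groups. It also includes Itgb7, which was tested on account of its level in the groups without TGFβ. A change of over 1 on the log2 scale with a call was found for 6 members against 13.5% of all tested genes. Itgae and Itgb7 are among these 6, and neither is tested under a filter of 10 counts in every library. The median log2 change of the members was −0.19, against −0.01 over all genes.

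Itgb2, the β chain that all leukocyte β2 integrins need, was measured at 1948, 2123 and 2017 CPM in the untreated libraries, 1704, 1763 and 1738 CPM with TGFβ, 2081, 2021 and 2124 CPM with Pam3, and 2077, 2011 and 2050 CPM with both. The 3 TGFβ libraries were the lowest of the 12, and the other 3 groups overlapped each other. Itgb2 fell with TGFβ alone by 0.23 in log2 units (SE 0.0513, adjusted p = 0.000624). With Pam3 present the TGFβ difference was −0.02 (95% interval −0.13 to 0.09, adjusted p = 0.776).

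Itgam, the αM chain of Mac-1, was the α chain with the highest level per kilobase in untreated cells. Its levels were 1071, 1050 and 1144 CPM untreated. It was at 36.6, 40.2 and 39.4 CPM with TGFβ, at 1303, 1229 and 1309 CPM with Pam3, and at 111, 97.3 and 96.4 CPM with both. No 2 groups overlapped. TGFβ lowered Itgam 28.1-fold without Pam3 (log2 fold change −4.81, SE 0.0677, adjusted p = 2.32e-25) and 12.6-fold with Pam3 (log2 fold change −3.66, SE 0.0638, adjusted p = 7.98e-24). The summed neutrophil markers were at 13.1 to 15.5 CPM in untreated, 3.27 to 5.16 CPM in TGFβ, 15.9 to 16.9 CPM in Pam3 and 5.15 to 5.97 CPM in Pam3+TGFβ libraries. That sum was mostly S100a8, with means of 13.8 CPM in untreated and 3.07 CPM in TGFβ cells, while S100a9 went the other way (0.253 and 0.993 CPM) and Camp had means of 0.00802 and 0.174 CPM. Of the other markers, Mpo had no count in any of the 12 libraries, and Ly6g and Elane had at most 3 and 4 counts in a library. A protein-coding gene model on the same strand, Gm49368, shares 3450 exonic bases with Itgam and has no row of its own among the deposited counts. How the counting treated reads in both is not given in the sources used here.

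Itgal, the αL chain of LFA-1, went the opposite way. Its levels were 412, 424 and 417 CPM in untreated, 1074, 1143 and 1134 CPM in TGFβ, 511, 505 and 508 CPM in Pam3, and 1277, 1221 and 1289 CPM in Pam3+TGFβ libraries. Every library with TGFβ was above every library without it. Itgal rose with TGFβ 2.68-fold without Pam3 (log2 fold change 1.42, SE 0.0494, adjusted p = 4.34e-18) and 2.49-fold with Pam3 (1.31 on the log2 scale, SE 0.0493, adjusted p = 2.59e-17).

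Itgax, the αX chain that marks alveolar macrophages, was at 333, 325 and 348 CPM untreated, 160, 175 and 168 CPM with TGFβ, 375, 378 and 377 CPM with Pam3, and 267, 264 and 284 CPM with both. The 4 groups did not overlap, and the TGFβ group was lowest. Itgax fell by 1.00 in log2 units in TGFβ alone (SE 0.0441, adjusted p = 5.55e-16) and by 0.47 with Pam3 present (SE 0.0436, adjusted p = 1.42e-09).

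**Figure D1:**
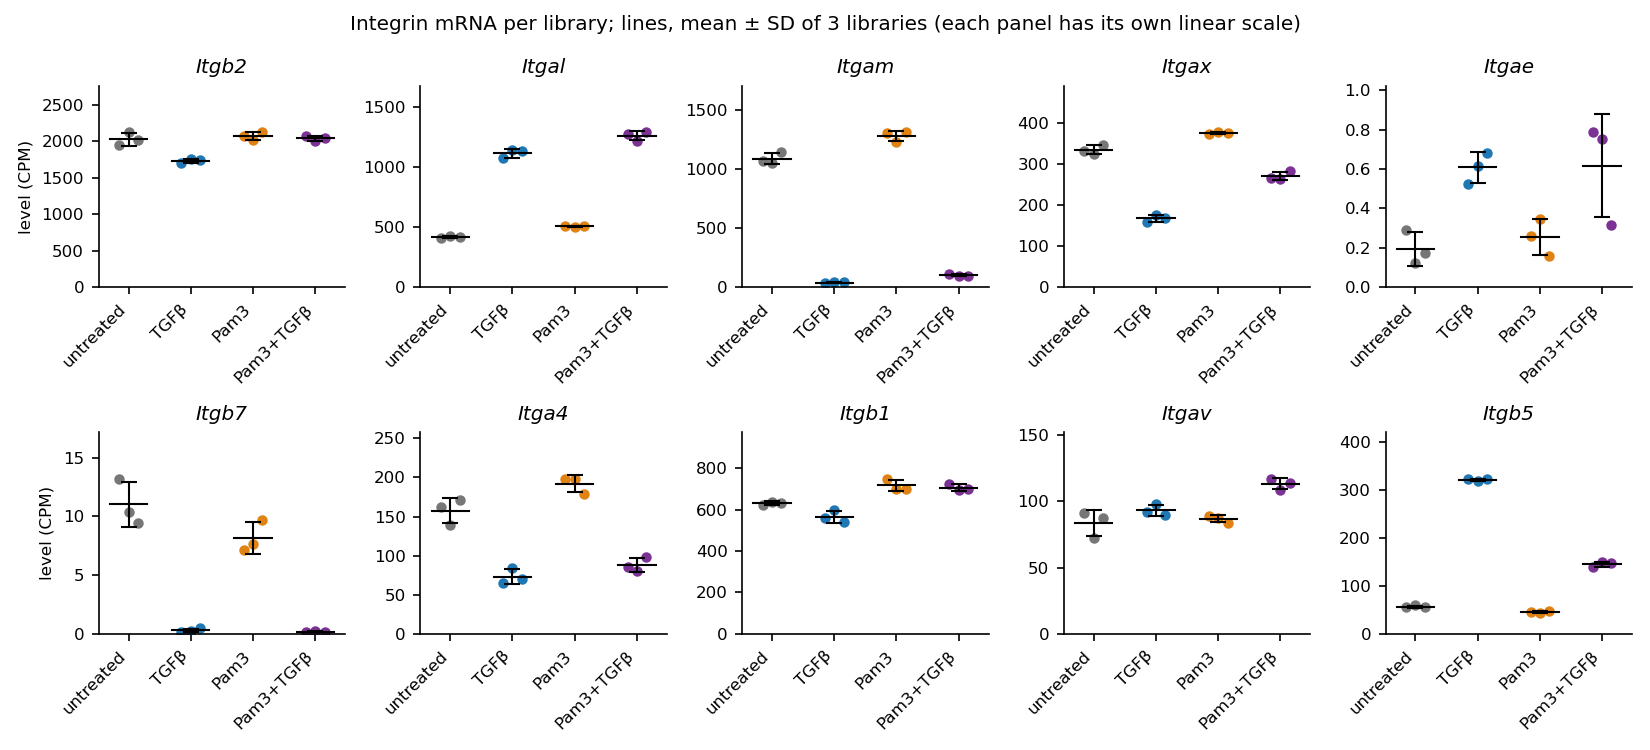
Level of each of the 10 integrin genes (vertical axis, CPM, linear and starting at 0, with its own scale per gene) in the untreated, TGFβ, Pam3 and Pam3+TGFβ groups; points are single libraries and lines the mean ± SD of 3. Itgam and Itgb7 sit near 0 in both TGFβ groups on their own scales, Itgal and Itgb5 are higher there, and Itgae stays under 1 CPM in every library.

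Per kilobase of exon, the 4 β2 partner genes can be set beside each other, although such levels depend on the annotated length. Of their summed level, Itgam made up 61.1% ± 0.721 (SD, n = 3) in untreated and 3.52% ± 0.0503 in TGFβ libraries. Itgal made up 18.3% ± 0.724 and 79.0% ± 0.190 of the sum in the same groups. The share of Itgax was 19.9% ± 0.115 in untreated and 16.1% ± 0.255 in TGFβ libraries. Itgal thus took the place of Itgam as the leading β2 partner at the mRNA level. Pam3 alone left that makeup near the untreated one, with 61.4% ± 0.827 for Itgam, and in Pam3+TGFβ libraries Itgam reached 7.32% ± 0.545 and Itgal 70.9% ± 0.0473. Itgad contributed at most 1.5% in every library. The summed α level fell less than Itgam did, from 348 ± 11.7 CPM per kb in untreated to 215 ± 7.52 CPM per kb in TGFβ libraries.

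**Figure D2:**
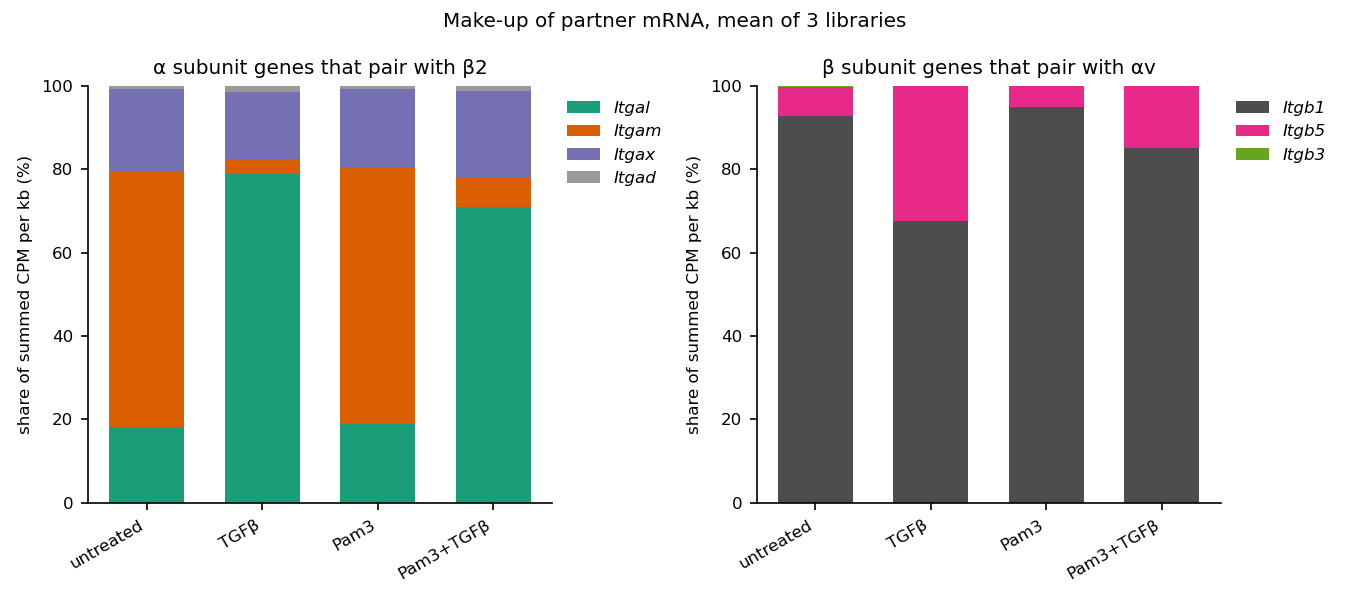
Share (vertical axis, %) of the summed CPM per kb held by each α gene that pairs with β2 (left) and each β gene that pairs with αv (right) in the 4 groups, as means of 3 libraries. In the left panel Itgal goes from 18.3% in untreated to 79.0% in TGFβ libraries, and in the right panel Itgb5 goes from 7.0% to 32.5%.

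Itgae and Itgb7, the chains of the E-cadherin receptor αEβ7, moved in opposite directions with TGFβ. Itgb7 was at 13.2, 10.4 and 9.47 CPM in untreated libraries (502, 433 and 332 counts) and at 0.166, 0.222 and 0.445 CPM in TGFβ libraries (6, 9 and 17 counts). With Pam3 it was at 7.10, 7.62 and 9.72 CPM, and with both at 0.145, 0.187 and 0.158 CPM (5, 7 and 7 counts). The libraries with and without TGFβ did not overlap. Itgb7 passed the low-count filter only through the groups without TGFβ, as its libraries with TGFβ held 5 to 17 counts. TGFβ lowered Itgb7 39.1-fold without Pam3 (log2 fold change −5.29, SE 0.245, adjusted p = 1.45e-15) and 48.7-fold with Pam3 (−5.60 on the log2 scale, SE 0.271, adjusted p = 4.48e-15).

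Itgb7 was thus lower, not higher, with TGFβ in these cells. Mast cells and basophils also express Itgb7, and their summed markers moved with it, at 0.342 to 1.40 CPM in untreated, 0 to 0.0741 CPM in TGFβ, 0.319 to 0.731 CPM in Pam3 and 0 to 0.203 CPM in Pam3+TGFβ libraries. Of the 9 markers, Mcpt4, Tpsb2 and Fcer1a had no count in any of the 12 libraries. In untreated cells 1 marker, Cpa3, had at least 10 counts in every library. Its mean was 0.599 CPM there and 0.0334 CPM in TGFβ libraries.

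Itgae had 11, 5 and 6 counts in untreated, 19, 25 and 26 in TGFβ, 10, 13 and 5 in Pam3, and 27, 28 and 14 in Pam3+TGFβ libraries. Those counts correspond to 0.194 ± 0.0867, 0.608 ± 0.0781, 0.255 ± 0.0932 and 0.617 ± 0.261 CPM (SD, n = 3) in the same order. The untreated and TGFβ groups did not overlap, whereas Pam3+TGFβ replicate 3 lay below the highest Pam3 library. Itgae rose with TGFβ without Pam3 by 1.64 in log2 units (SE 0.579, adjusted p = 0.0203). With Pam3 present the difference was 1.24 (95% interval 0.08 to 2.41, adjusted p = 0.0773), which did not pass. The first call was lost without untreated replicate 2 (1.39, adjusted p = 0.0971), untreated replicate 3 (1.57, adjusted p = 0.0675), TGFβ replicate 3 (1.57, adjusted p = 0.0586) or the 3 libraries that stood apart (1.57, adjusted p = 0.0971), and over the 20 alternatives that tested it its adjusted p ran from 0.00952 to 0.0971. The second was called without Pam3+TGFβ replicate 3 alone (1.57, adjusted p = 0.0458), in a range from 0.0458 to 0.228.

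Itgae passed the low-count filter only through the groups with TGFβ, so a gene as low as untreated Itgae in all 4 groups would not have been tested, and its TGFβ effect is given as a value near that limit. With no filter it was 1.64 (adjusted p = 0.0367). T cells and CD103-bearing dendritic cells also carry Itgae. Of 6 T cell markers, Cd3e, Cd3g and Cd8a had no count in any library, and the summed level ran from 0 to 0.407 CPM, with 0.268 CPM or more only in the Pam3+TGFβ libraries. There Trac had 10 to 15 counts a library (mean 0.299 CPM), and it had none in the other 9 libraries; its part in the Itgae level was not tested. The summed dendritic cell markers were at 26.5 to 30.9 CPM in untreated and 24.7 to 26.3 CPM in TGFβ libraries. Within that sum Clec9a was at means of 16.7 and 20.5 CPM, Batf3 at 7.25 and 3.14 CPM and Zbtb46 at 4.64 and 1.42 CPM, and Flt3 had no count in either group. Haspin, an intronless kinase gene that lies inside Itgae on the opposite strand and shares no exonic base with it, rose with TGFβ without Pam3 by 0.32 (adjusted p = 0.00579), and its log2 difference with Pam3 was 0.01 (adjusted p = 0.934).

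The within-library ratio of Itgae to Itgb7 counts does not depend on library scaling. On the log2 scale it was −5.45, −6.30 and −5.68 in untreated, 1.58, 1.42 and 0.60 in TGFβ, −4.70, −4.41 and −5.80 in Pam3, and 2.32, 1.93 and 0.95 in Pam3+TGFβ libraries. It was below 0 in all 6 libraries without TGFβ and above 0 in all 6 with it. Averaged over both Pam3 states, the ratio was higher with TGFβ by 6.86. An exact two-sided permutation test within Pam3 states gave p = 0.005, the smallest that 400 assignments can give (adjusted p = 0.00591 over 13 ratios). Under the alternatives the difference in this ratio ran from 5.85 to 7.05.

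Itgae and Itgb7 were then set against the β2 chain, Itgav and Itga4 in the same way, with ratios of counts that pass through no filter but rest, for Itgae, on 5 to 28 counts. Itgae rose relative to Itgb2 by 1.55 (1.89 without and 1.20 with Pam3; exact permutation p = 0.01, adjusted p = 0.0108) and relative to Itgav by 1.15 (exact permutation p = 0.015, adjusted p = 0.015). In both ratios the groups with Pam3 overlapped, with Pam3+TGFβ replicate 3 below Pam3 replicate 2. Without the 3 libraries that stood apart these were 1.55 and 1.13, each with an adjusted p of 0.05 in the exact permutation test. Itgae rose relative to Itga4 by 2.54. Relative to Itgb2, Itgb7 fell by 5.31, relative to Itgav it fell by 5.71, and relative to Itga4 it fell by 4.31. Under the alternatives these Itgb7 differences ran from −5.50 to −4.69, from −5.92 to −5.09 and from −4.52 to −3.69, in the same order. The last 4 ratios and those of Itgam, Itgal and Itgax to Itgb2, of Itga4 to Itgb1 and of Itgav to Itgb5 reached the smallest exact permutation p of 0.005. Against Itgb2, Itgam fell by 4.11, Itgax fell by 0.61 and Itgal rose by 1.49.

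**Figure D3:**
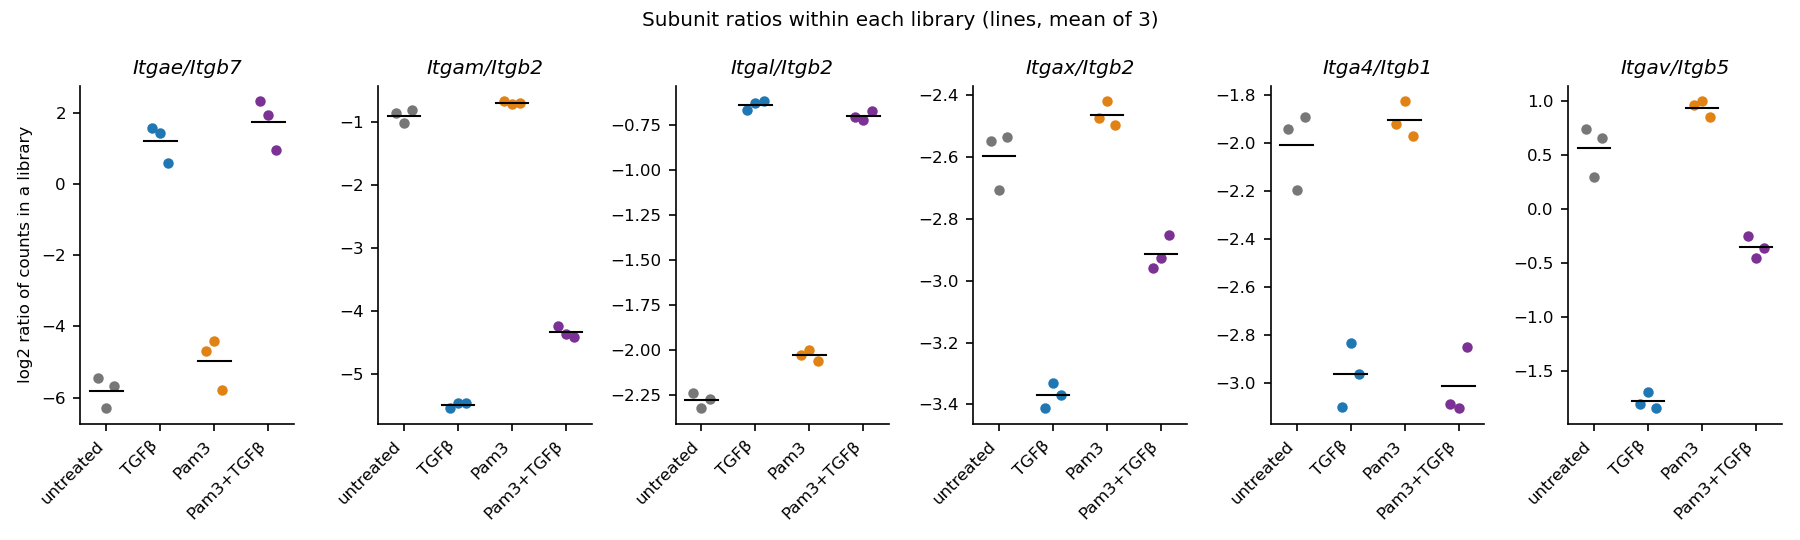
Log2 ratio of the counts of named subunit pairs within each library (vertical axis, own scale per panel, not starting at 0) in the 4 groups; points are libraries and lines the mean of 3. In these 6 ratios (Itgae to Itgb7, Itgam, Itgal and Itgax to Itgb2, Itga4 to Itgb1, Itgav to Itgb5) the libraries with TGFβ do not overlap those without, and the Itgae to Itgb7 ratio crosses from below 0 to above 0.

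Itga4, the α4 chain shared by the β1 and β7 pairs, fell. It was at 162, 140 and 171 CPM untreated, 65.3, 83.7 and 69.6 CPM with TGFβ, 198, 198 and 179 CPM with Pam3, and 85.3, 80.8 and 97.5 CPM with both. Every library with TGFβ was below every library without it. The fall was 1.11 on the log2 scale without Pam3 (log2 fold change −1.11, SE 0.105, adjusted p = 2.00e-06) and 1.13 with it (log2 fold change −1.13, SE 0.104, adjusted p = 1.93e-06). Cerkl on the opposite strand shares 3481 exonic bases with Itga4 and had 137 counts in the 12 libraries together.

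Itgb1, the partner of α4, αv and many other chains, was at 621, 638 and 635 CPM untreated, 560, 597 and 542 CPM with TGFβ, 749, 703 and 701 CPM with Pam3, and 725, 695 and 702 CPM with both. The TGFβ group was lowest, and the 2 groups with Pam3 overlapped. Itgb1 fell with TGFβ alone by 0.16 (SE 0.0503, adjusted p = 0.0111). That call was lost without TGFβ replicate 1 or 3, with adjusted p-values over all alternatives from 0.00252 to 0.140. With Pam3 the difference was −0.02 (95% interval −0.12 to 0.08, adjusted p = 0.768). Because Itgb1 was far above Itgb7 per kilobase, it made up 96.5% of the 2 β partners of α4 in untreated and 99.9% in TGFβ libraries.

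Itgav, which pairs with several β chains, had the smallest TGFβ effects in size among the 6 α chains of the members. Its levels were 91.2, 72.3 and 87.2 CPM in untreated, 92.2, 98.1 and 90.0 CPM in TGFβ, 89.2, 87.3 and 83.9 CPM in Pam3, and 117, 109 and 114 CPM in Pam3+TGFβ libraries. Untreated and TGFβ libraries overlapped, and the Pam3+TGFβ libraries were the highest of the 12. Itgav rose with TGFβ by 0.16 without Pam3 (SE 0.0663, adjusted p = 0.0456) and by 0.39 with Pam3 (SE 0.0663, adjusted p = 3.06e-05). The first call held in 15 of 21 alternatives, with adjusted p-values from 0.00547 to 0.323, the highest without untreated replicate 2 (0.07 on the log2 scale), and at 0.121 without the 3 libraries that stood apart.

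Itgb5, the β chain that with αv forms a vitronectin receptor, rose the most among the members. It was at 54.7, 59.0 and 55.2 CPM untreated, 323, 319 and 324 CPM with TGFβ, 45.8, 43.8 and 46.4 CPM with Pam3, and 140, 149 and 147 CPM with both. The 4 groups did not overlap. Itgb5 rose with TGFβ 5.71-fold without Pam3 (log2 fold change 2.51, SE 0.0491, adjusted p = 3.97e-23) and 3.21-fold with Pam3 (1.68 on the log2 scale, SE 0.0485, adjusted p = 1.24e-19). Per kilobase, its share of the β partners of αv went from 7.0% ± 0.211 to 32.5% ± 1.26 with TGFβ alone, and from 5.07% ± 0.203 to 14.8% ± 0.712 with Pam3 present. Itgb3 made up at most 0.155% of that sum in every library, and Itgb6 had no count in any library.

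With TGFβ added to Pam3-treated cells, 7 of the 10 members were called, against 45.3% of all tested genes. The 3 called higher were Itgal, Itgav and Itgb5, against 21.5% of all genes called higher, and the 4 called lower were Itgb7, Itgax, Itgam and Itga4, against 23.8% called lower. The median log2 change over the members was −0.02, and over all tested genes it was −0.00. The 3 members not called were Itgae, Itgb2 and Itgb1. Among the called members, Itgb7 was tested on account of its level in the groups without TGFβ.

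**Figure D4:**
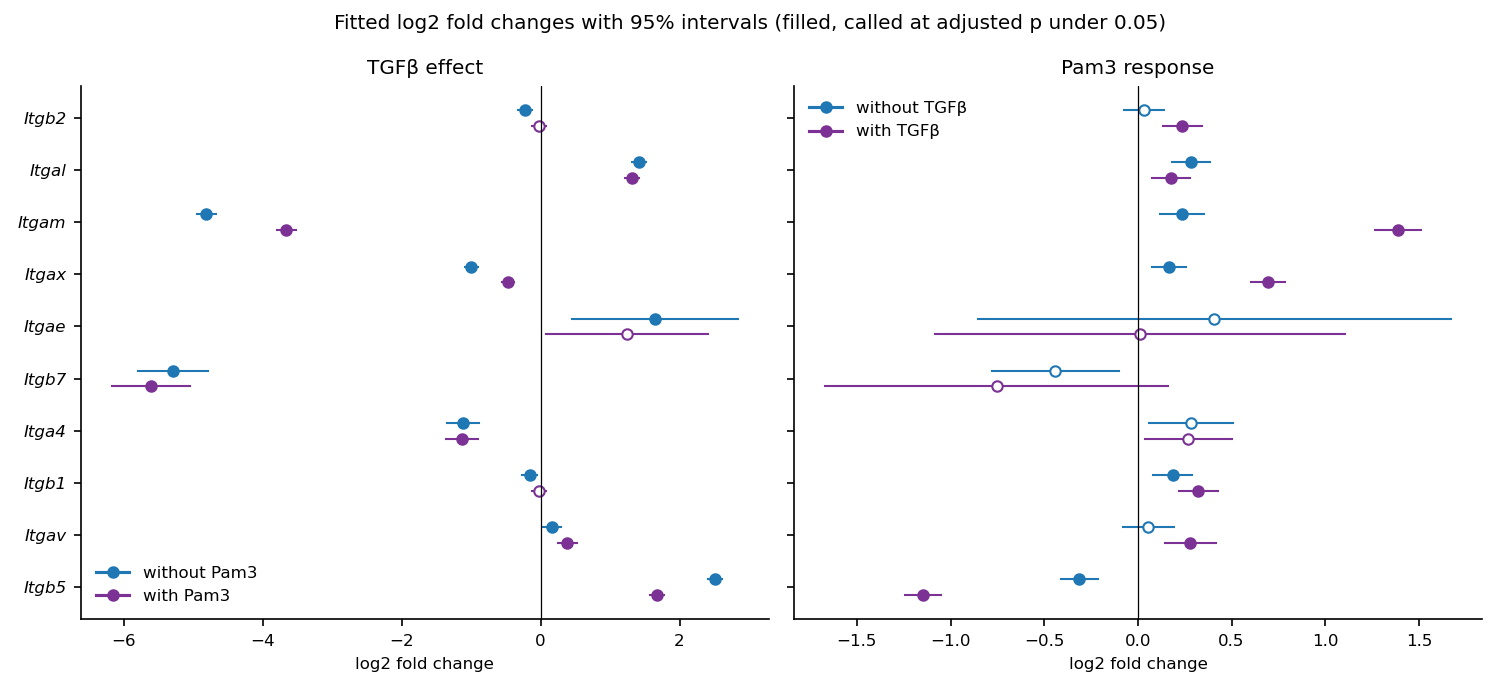
Log2 fold change (horizontal axis) of each member with TGFβ (left) and with Pam3 (right), with 95% intervals; colour gives the other treatment's state, and filled points were called at an adjusted p under 0.05. Itgam and Itgb7 lie beyond −3 on the left in both states, while on the right the Itgam and Itgb5 points with TGFβ, at 1.39 and −1.15, are the ones beyond 1 in size.

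Pam3 was next compared with its absence. Without TGFβ, 5 of 10 members were called, against 18.3% of all tested genes, 4 of them higher (9.62% of all genes) and 1 lower (8.66%). Itgam rose by 0.24 (SE 0.0572, adjusted p = 0.00422), Itgal by 0.28 (SE 0.0486, adjusted p = 0.000108), Itgax by 0.17 (SE 0.0435, adjusted p = 0.00747) and Itgb1 by 0.19 (SE 0.0503, adjusted p = 0.0100). Itgb5 fell by 0.31 (SE 0.0484, adjusted p = 2.85e-05). The differences of the others were −0.44 for Itgb7 (adjusted p = 0.0643, called in 5 of 20 alternatives), 0.28 for Itga4 (adjusted p = 0.0817, called in 4 of 21), 0.41 for Itgae (0.13 to 0.82 over the alternatives), 0.03 for Itgb2 and 0.06 for Itgav. The Itgb1 call was lost without Pam3 replicate 1 (adjusted p = 0.0673) and without the 3 libraries that stood apart (adjusted p = 0.0602), with the lowest at 0.000323.

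In cells with TGFβ, 7 of 10 members were called with Pam3, against 38.5% of all tested genes, 6 of them higher (20.4% of all genes) and 1 lower (18.1%). Itgam rose 2.62-fold (log2 fold change 1.39, SE 0.0598, adjusted p = 6.23e-16), which left it at 101 ± 7.95 CPM, below the 1088 ± 49.6 CPM of untreated cells. Itgax rose by 0.69 (SE 0.0439, adjusted p = 1.26e-12). Itgb5 fell 2.21-fold (log2 fold change −1.15, SE 0.0466, adjusted p = 1.95e-16), to 145 ± 5.06 CPM. Smaller rises were found for Itgb1 (0.32, adjusted p = 1.03e-05), Itgav (0.28, adjusted p = 0.00141), Itgb2 (0.24, adjusted p = 0.000542) and Itgal (0.18, adjusted p = 0.00492). The Itgal rise was not called with upper-quartile scaling (0.11, adjusted p = 0.0631) or without TGFβ replicate 1 (adjusted p = 0.0682). Itga4 differed by 0.27 (adjusted p = 0.0628, called in 6 of 21 alternatives, from 0.000145 to 0.258), Itgb7 by −0.75 (adjusted p = 0.194, with values from −1.02 to −0.27 over the alternatives) and Itgae by 0.01 (adjusted p = 0.993).

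The interaction, by which the Pam3 response of cells kept in TGFβ exceeds that of cells kept without it, was called for 3 of 10 members, against 15.9% of all tested genes, with 2 above 0 (10.3% of all genes) and 1 below (5.67%). It was 1.15 for Itgam (SE 0.0823, adjusted p = 9.64e-11), 0.53 for Itgax (SE 0.0617, adjusted p = 4.87e-07) and −0.83 for Itgb5 (SE 0.0669, adjusted p = 7.78e-10). Each of the 3 has the sign opposite to that gene's own TGFβ effect. For Itgb2 it was 0.21 (SE 0.0725, adjusted p = 0.0556), called in 7 of 20 alternatives, with adjusted p-values from 0.00240 to 0.177. The other 6 members were not called, with values from −0.40 for Itgae to 0.22 for Itgav, which was called in 2 of 20 alternatives, with no filter (adjusted p = 0.0397) and without untreated replicate 2 (0.32, adjusted p = 0.00179). The TGFβ effects with and without Pam3 use separate libraries, and the Pam3 responses likewise, but a TGFβ effect and a Pam3 response of the same cells share a group.

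Ordered by CPM per kb, Itgb2 was the highest member in every group, at 626 in untreated and 535 in TGFβ libraries. In untreated cells Itgam (213), Itgb1 (106), Itgax (69.1) and Itgal (63.5) followed, then Itga4 (9.41) and Itgb5 (7.97), whose libraries overlapped, then Itgav (6.78), Itgb7 (3.80) and Itgae (0.0311). In TGFβ cells the order was Itgb2, Itgal (169.8), Itgb1 (94.8), Itgb5 (45.6), Itgax (34.6), then Itgav and Itgam, which overlapped at 7.57 each, Itga4 (4.35), and Itgae (0.0977) and Itgb7 (0.0958), which also overlapped. In Pam3 cells the order of the highest 5 was as in untreated cells, with Itgax (77.5) and Itgal (77.2) overlapping. In Pam3+TGFβ cells Itgal (192) was again second, and Itgb5 (20.6) overlapped Itgam (19.8).

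Of 16 other integrin subunit genes, 8 passed the filter. With TGFβ and no Pam3, 3 of these 8 were called higher and 2 lower, against 22.9% and 28.1% of all tested genes, with a median log2 change of −0.41. Itga6, the α chain of laminin receptors, went from 52.6 ± 0.851 to 105 ± 5.40 CPM, and rose by 1.00 without and 0.94 with Pam3. Itga5, the α chain of the fibronectin receptor α5β1, was at 188 ± 11.6 CPM in untreated, 306 ± 3.65 in TGFβ, 248 ± 8.50 in Pam3 and 589 ± 20.1 CPM in Pam3+TGFβ libraries, and rose with TGFβ by 0.70 without and 1.25 with Pam3 (interaction 0.54, adjusted p = 1.11e-06). Itgad, the fourth β2 partner, rose by 0.30 without Pam3 (adjusted p = 0.00894), and its difference with Pam3 was 0.17 (adjusted p = 0.154).

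Itgb3, the β chain of the vitronectin receptor αvβ3, fell from 33 to 41 counts a library in untreated to 5 to 12 in TGFβ cells, and fell by 2.01 in log2 units (adjusted p = 0.00673). This call was lost without the 3 libraries that stood apart (adjusted p = 0.0574). With Pam3 present Itgb3 fell by 1.92 (adjusted p = 0.0198, called in 17 of 20 alternatives). It passed the low-count filter only through the groups without TGFβ, so both values are given as near that limit. Itga1, the α chain of a collagen receptor, fell by 0.37 without Pam3 (adjusted p = 0.0155) and was called in 16 of 21 alternatives, with adjusted p-values from 7.61e-05 to 0.204. With Pam3 its TGFβ difference was 0.23 (adjusted p = 0.118). That difference was called in 5 of 21 alternatives, among them the fit with the replicate number as a block (0.22, adjusted p = 0.0417), with adjusted p-values from 0.0169 to 0.411.

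Among 23 ligand genes, 18 were tested, and with TGFβ and no Pam3 4 were called higher and 12 lower, against 22.9% and 28.1% of all tested genes, with a median log2 change of −0.71. With Pam3 present 6 were called higher and 10 lower, against 21.5% and 23.8%, with a median of −0.62. Spp1, osteopontin, a ligand of αv and α4 integrins, rose by 2.09 without and 2.10 with Pam3, with mean levels of 1665 and 7074 CPM in untreated and TGFβ libraries and 1316 and 5655 CPM in Pam3 and Pam3+TGFβ libraries. F11r, the junctional adhesion molecule A that αL can bind, rose by 1.90 and 1.74. Cdh1, E-cadherin, the ligand of αEβ7, was at 171 ± 11.8 CPM untreated, 394 ± 6.64 in TGFβ, 147 ± 4.51 in Pam3 and 258 ± 4.87 CPM in both, and rose by 1.20 and 0.81. Cd47, an integrin-associated protein, rose by 0.58 and 0.55.

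Among the ligand-related genes that fell, Adam8, a membrane protease with a disintegrin domain, fell from a mean of 176 to one of 1.83 CPM in cells without Pam3, and from 202 to 5.22 CPM in Pam3 cells. Lrrc32, which presents latent TGFβ to αv integrins, averaged 6.97 CPM in untreated cells and had no count in any TGFβ library, and was at least 88.7-fold lower against a floor of 3 counts per library; with Lrrc32 at that bound the median of the list is the same −0.71. Icam1, the main ligand of LFA-1, named outside the rule after its values were seen, fell by 0.96 with TGFβ alone (adjusted p = 5.23e-15) and rose by 0.70 with TGFβ in the presence of Pam3 (adjusted p = 2.80e-12). The stricter filter of at least 10 counts in every library leaves Lrrc32, Thbs1, Edil3, Tnc and Fbln5 untested, since each had a library at 0 counts. The ligand genes called lower then number 6 without and 5 with Pam3. These counts are out of fewer tested genes and are not set against a share of all genes. With Pam3 the untested genes account for the whole drop. Without Pam3 a gene that was still tested lost its call as well.

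Among 38 genes of integrin activation and of the adaptors behind it, 34 were tested, of which 6 were called higher and 23 lower with TGFβ alone, against 22.9% and 28.1% of all tested genes, with a median log2 change of −0.40. With Pam3 present 10 were higher and 20 lower, against 21.5% and 23.8%, with a median of −0.24. The genes called lower in both comparisons include Lims2, which passed the low-count filter only through the groups without TGFβ. It had 1 to 7 counts in TGFβ libraries. Cd81, a tetraspanin, rose by 0.99 and 0.65. Tln2, talin 2, fell from a mean of 84.0 to one of 9.31 CPM in cells without Pam3, and from 56.7 to 8.32 CPM in Pam3 cells. Fyb, an adaptor of the Rap1 route to LFA-1, fell by 2.61 without and fell by 2.72 with Pam3 in log2 units. Rasgrp4, a Ras exchange factor, fell by 2.44 and fell by 2.73 in the same comparisons. Tln1, talin 1, and Fermt3, kindlin-3, the pair that opens leukocyte integrins, were named outside the rule after their values were seen. Tln1 fell by 0.56 without and fell by 0.40 with Pam3. Fermt3 fell by 0.16 without Pam3 (adjusted p = 0.00610, called in 20 of 21 alternatives) and fell by 0.14 with it (adjusted p = 0.0184, called in 17 of 21).

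**Figure D5:**
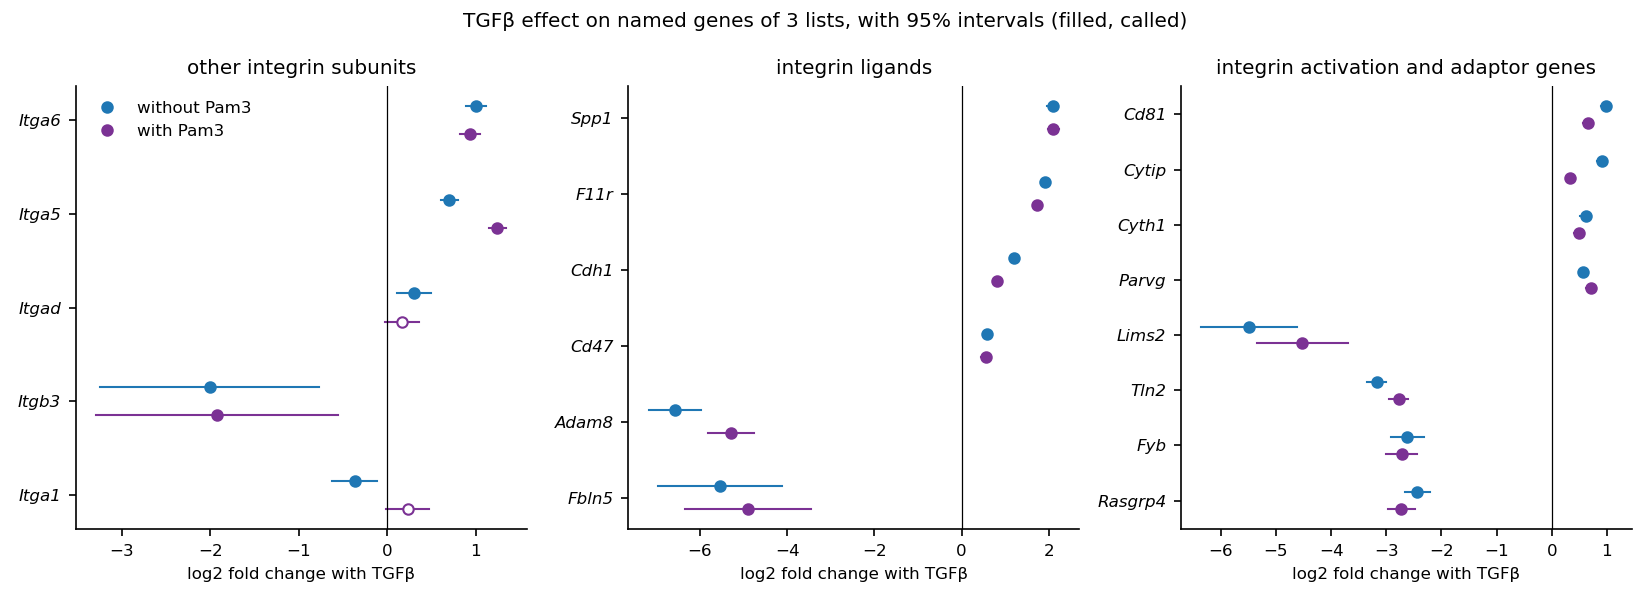
Log2 fold change with TGFβ (horizontal axis, 95% intervals) of named genes from the 3 lists, without and with Pam3; filled points were called. Itga6, Itga5, Spp1, F11r, Cdh1 and Cd81 lie above 0 in both states and Adam8, Fbln5, Lims2 and Tln2 below −2. Fbln5 and Lims2 passed the low-count filter only through the groups without TGFβ. In TGFβ libraries they had 0 to 4 and 1 to 7 counts, so their values are near that limit. Genes with a group at 3 counts or fewer are not drawn.

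The genes most like Itgae in their pattern over the 12 libraries, by Pearson r of log2 CPM among 13984 genes, were Gar1 (r = 0.935), Smim10l1 (0.920), Smarca5 (0.913), Gm49249 (0.912) and Nvl (0.909). Among those most like Itgb7 were Gm4788 (r = 0.996), Myrf and Rab31 (0.994 each) and Gask1b (0.993). These are descriptions over libraries that share groups, depth and scaling, and the lower values for Itgae stand beside its 5 to 28 counts a library. Gm4788 had 19 to 26 counts a library in untreated and 22 to 25 in Pam3 cells. With TGFβ it had at most 1, so its r rests on counts near the floor.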

How the data were processed

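Per the labels' protocols, poly(A) RNA libraries from a stranded kit were sequenced, and per the submitters' processing notes the authors used bcl2fastq 2.20.0, FastQC 0.11.7, Bowtie2 2.4.1 on GRCm39, featureCounts of Subread 2.0.0, and, in R 4.2.1, DESeq2 1.36.0. How reads were assigned by strand, to which annotation and when multiply aligned is not given in the sources used here. Bowtie2 does not split reads over introns, so reads across exon junctions can be lost. The deposited counts are whole reads per gene symbol and were used for every main test. The deposited normalized signal is the count divided by a constant per library by the authors, and served 1 alternative.

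Genes passed filterByExpr at a minimum count of 10 (14749 genes). edgeR 4.0.16 in R 4.3.3 fitted 4 group means to 12 libraries (TMM, robust quasi-likelihood test, Benjamini-Hochberg adjustment). Each SE is the size of the log2 fold change divided by the square root of F. Ratios used counts plus 0.5 and exact permutation within Pam3 states; of the 13 ratios, 1 is the inverse of another. On simulated counts with 2-fold and 4-fold changes in the TGFβ effect without Pam3, over 14417 genes, 80 of 100 and 89 of 99 changed genes were called. Of 177 calls there, 8 (4.52%) were of unchanged genes. The simulation changed a far smaller share of genes than was called in the data, so these rates need not hold for the data. Lengths and positions are from GENCODE M39, matched by unique symbol for 32245 of 40847 rows. Reads carry no molecular identifiers, so the counting floor covers counting error only.

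The members and lists were chosen with earlier results of these data known. All members are described. From each list up to 4 called genes per direction with the largest TGFβ effect without Pam3 and no library of the higher group under 10 counts could be named, with every other integrin subunit that was tested, and the 5 genes most like Itgae and Itgb7. Part of these are described, and 1 of the genes most like Itgb7 is not reported here. Alternatives were DESeq2-type and upper-quartile scaling, DESeq2 1.42.0, limma 3.58.1 on log2 of the normalized signal plus 1, no filter, a filter of 10 counts that each library must reach, a replicate block, fits of the 6 libraries compared and leaving out each library. For the TGFβ effect with Pam3, all 3 same-numbered pairs of libraries had deviations that correlated over 0.1 (0.165 to 0.396). No label says what a number marks. Over all groups 6 of 12 libraries correlated best with their own number, so whether the numbers pair libraries is not settled. For the other 3 pairs of groups that a comparison sets against each other, at least 1 same-numbered pair was under 0.1. Leaving out the 3 libraries that stood apart was added after the data were seen.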

Additional observations from a re-analysis of the deposited data

Results flagged for a closer look

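The TGFβ effect differed between cells with and without Pam3 for 3 members, by a test of the difference itself, the interaction in edgeR's quasi-likelihood test. For Itgam the difference was 1.15 on the log2 scale, with a fall of 4.81 without Pam3 and of 3.66 with it. For Itgax the difference was 0.53, with a fall of 1.00 without Pam3 and of 0.47 with it. For Itgb5 the difference was −0.83, with a rise of 2.51 without Pam3 and of 1.68 with it. Each of the 3 was called under every alternative that was run.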

How the results depend on the processing

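Over 50 pairs of member and contrast, 1028 values were computed under alternatives: 967 kept direction and side of the threshold, 16 lost a call, 25 gained one and 20 changed sign. The calls of Itgam, Itgal, Itgax, Itga4, Itgb5 and Itgb7 with TGFβ held under every alternative that tested them. A filter of 10 counts in each library leaves Itgae and Itgb7 untested. The Itgae difference ran from 1.39 to 2.07 without and from 1.02 to 1.57 with Pam3 when 1 library was left out, and the first was 1.57, with no call, without the 3 libraries that stood apart. Without those 3, the Itgae to Itgb2 and Itgae to Itgav ratios (1.55 and 1.13) had an adjusted p of 0.05 in the exact permutation test. Every change of sign was in a difference that was not called. With a filter of 10 counts that each library must reach, the TGFβ difference with Pam3 was 0.0025 for Itgb2 and 0.00248 for Itgb1, and that of Itgb1 was 0.00599 without the 3 libraries. Leaving out 1 library gave −0.0333 to 0.00476 for Itgb2 and −0.0403 to 0.0172 for Itgb1 there, −0.0380 to 0.127 for the Pam3 response of Itgav without TGFβ, −0.220 to 0.315 for that of Itgae with TGFβ, and for the interaction −0.583 to 0.167 for Itgb7 and −0.118 to 0.0788 for Itga4 (0.0415 without the 3 libraries). The Itgae Pam3 response with TGFβ was −0.0512 with upper-quartile scaling, −0.0660 with limma and −0.0722 with the replicate block. The causes were not tested. Over all groups, 12 of 18 same-numbered pairs had a correlation of deviations over 0.1 (−0.405 to 0.482), and 6 of 12 libraries correlated best with their own number. In the TGFβ effect with Pam3, where all same-numbered pairs correlated over 0.1, the replicate block moved genes called from 6679 to 6736. Among the members and the list genes recomputed one by one, it changed the call of Itga1 alone. It moved genes called without Pam3 from 7518 to 7562 and members called in the interaction from 3 to 4 (Itgb2, adjusted p = 0.0480). Other subunits called lower with TGFβ alone went from 2 to 0 without the 3 libraries. Itgae in every group, and Itgb7 in TGFβ cells, rest on under 30 counts a library, which limits the precision of their values.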

Other observations

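Genes with the pattern most like 3 further members, a comparison added after the data were seen, were Wfdc17 for Itgam (Pearson r = 0.999 of log2 CPM over 12 libraries), C5ar2 for Itgb5 (r = 0.997) and Sema4a for Itgal (r = 0.998). These libraries share groups, depth and scaling, and no test was made.

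Icam1 had an interaction of 1.66 on the log2 scale (SE 0.0667, adjusted p = 4.93e-15 in edgeR's quasi-likelihood test). Its levels were 170 ± 7.74 CPM in untreated, 87.2 ± 1.44 in TGFβ, 201 ± 8.71 in Pam3 and 325 ± 13.9 in Pam3+TGFβ libraries (SD, n = 3). The gene was picked after its values were seen.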
